A study of Mus musculus with 12 samples.

Results

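MHC class I molecules present peptides made in the cytosol to CD8 T cells, and the 8 mouse genes described here encode parts of that pathway. They are the heavy chains H2-K1 and H2-D1, the nonclassical heavy chain H2-T3, the light chain B2m, the peptide loading proteins Tap1, Tap2 and Tapbp, and the regulator Nlrc5. They were chosen by name as members of the pathway, with earlier results of these data known, and are 8 of the 25899 gene symbols in the deposited count table. All 8 passed the filter on low counts, H2-T3 with 0 to 62 reads a library and the other members with at least 990 reads in every library.

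A class I molecule is a heavy chain bound to beta-2 microglobulin, the B2m product, and a short peptide. Proteasomes cut proteins to peptides, the TAP transporter formed by the Tap1 and Tap2 products carries these into the endoplasmic reticulum, and tapasin, the Tapbp product, bridges TAP to empty class I molecules while they are loaded. NLRC5 is a transactivator that acts on class I genes, B2m and Tap1 through the conserved promoter boxes called X1, X2 and Y, to which RFX, CREB-family and NF-Y proteins bind. H2-T3 encodes the thymus leukaemia antigen, which is made by mouse small-intestinal epithelium and binds CD8αα, a homodimer carried by many intraepithelial lymphocytes (IEL).

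The data were bulk RNA-seq read counts of IEL sorted from the small intestine of Rag2-/- hosts, with 3 libraries in each of 4 groups. Every host was Rag2-/-, so it made no T or B cells of its own but kept its innate lymphoid cells, and each was examined 1 week after receiving at least 2000000 lymph-node T cells of Themis wild-type (WT) donors. CD4-derived CD8αα cells were TCRβ CD8αα cells recovered after transfer of conventional CD4 T cells. CD8αβ-derived CD8αα cells were TCRβ CD8αα cells recovered after transfer of CD8αβ T cells. Their companions were TCRβ CD4 cells from hosts given CD4 T cells (CD4 IEL) and TCRβ CD8αβ cells from hosts given CD8αβ T cells (CD8αβ IEL). The series title concerns how CD8αα IEL of CD4 origin differ from those of CD8 origin. Nothing in the labels ties a replicate to its own animal, and the p-values therefore cover the spread among these libraries. How much of that spread is technical was not tested. Within both groups labelled CD8αα the libraries differed in Xist and Y-linked transcripts, as given below.

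Promoter sequences are shown first because 3 of the members share a spaced pair of boxes in front of their start sites. RefSeq promoter entries (GRCm38.p6) were found for 6 of the 8 members. They were H2-K1, H2-D1, H2-T3, B2m, Tap1 and Tapbp, while Tap2 and Nlrc5 had none in the table used. The 250 bases before each start were searched on both strands for the letters TGACG (a core of the X2 box), ATTGG (a core of the Y box) and TTTCACTT (a core bound by interferon regulatory factors). The following 30-base stretches run from TGACG to ATTGG on the gene's own strand, with both cores in capitals.
H2-K1, chr17:34000359-34000388, minus strand: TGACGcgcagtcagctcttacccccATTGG
H2-D1, chr17:35262993-35263022, plus strand: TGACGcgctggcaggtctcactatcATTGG
B2m, chr2:122147609-122147638, plus strand: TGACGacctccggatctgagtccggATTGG

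The 2 cores were 20 bases apart in all 3 genes, and the pair began at position -55 from the RefSeq start in H2-K1, -101 in H2-D1 and -78 in B2m. In H2-D1 the stretch also lay in an annotated exon of the gene, because the GENCODE M21 model of the gene begins further upstream. Overlap with exons was checked for these 3 pairs only. Of 32851 mouse promoters of the same length, 0.381% (125) held such a pair on 1 strand with 15 to 25 bases between the cores. Single cores were common, with TGACG in 17.8% and ATTGG in 33.8% of promoters. Tap1 held TGACG at position -86, but no ATTGG downstream of it on the same strand. The stretch from this site lay within the annotated bounds of Psmb9, a gene on the other strand.
Tap1, chr17:34187470-34187499, plus strand: TGACGacagagggtcctgccctcaatctgg

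The letters TTTCACTT occurred in the windows of the 3 heavy chains and are in capitals in the stretches here.
H2-K1, chr17:34000419-34000448, minus strand: catctccacagTTTCACTTctgcacctaac
H2-D1, chr17:35262933-35262962, plus strand: catctcctcagTTTCACTTctgcacctaac
H2-T3, chr17:36190259-36190288, minus strand: cagaactatagTTTCACTTtttgctctctg
TTTCACTT was found in 1.36% of promoters. The H2-D1 stretch lay within the annotated bounds of its own gene, as did nearly all of the H2-T3 stretch. H2-T3 had neither TGACG nor ATTGG in its window, and Tapbp had ATTGG alone among the letters searched. A match is a description of these letters and no evidence that a protein bound there.

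**Figure D1:**
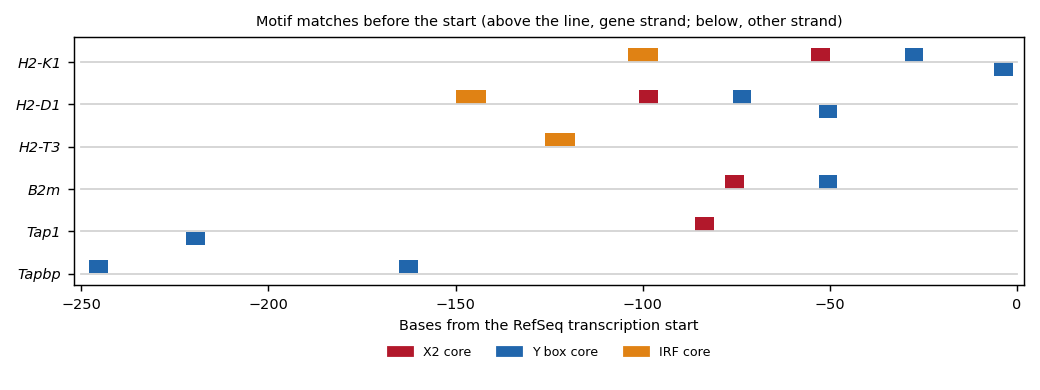
Positions of the searched letters in the 250 bases before the RefSeq start of the 6 members with a promoter entry, with the gene strand above each line and the other strand below it. The X2 and Y cores stand 20 bases apart in H2-K1, H2-D1 and B2m, while H2-T3 shows the interferon regulatory factor match alone.

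Library totals ran from 5620257 to 11070734 counts, so a count of 0 allows a level of up to 3 counts, or 0.271 to 0.534 CPM (counts per 1000000 of the library). Levels below are CPM of the library total scaled by the trimmed mean of M values (TMM), and adjusted p-values are Benjamini-Hochberg values of the quasi-likelihood test of edgeR over the 12622 genes tested. The libraries labelled CD8αα stood apart from their companions in markers that touch every comparison with them. Of 11 T cell markers, 10 were lower in all 6 of these libraries than in all 6 companions, although the label names TCRβ. Cd3e, a chain of the T cell receptor complex, was at 3.21 to 22.2 CPM in them, against 403 to 639 CPM in the companions. Cd3g, another chain of that complex, was the 1 that went the other way, at 1902 to 3780 CPM in them against 424 to 1002 CPM in the companions. The 11 markers of NK and innate lymphoid cells summed to 3475 to 6233 CPM in them, against 913 to 1230 CPM in the companions, with 4 of the 11 above every companion and 2 below. Their highest members were Tyrobp at 1428 to 3036 CPM and Fcer1g at 1029 to 2118 CPM in the libraries labelled CD8αα, while Ncr1 was at 0 to 4.27 CPM there. The coreceptor genes followed the label, with Cd8a at 2433 to 3251 CPM in these libraries. Cd8b1 was at 2.53 to 20.6 CPM in them, against 1087 to 1167 CPM in CD8αβ IEL. Cd4 was at 2.56 to 9.35 CPM, against 1583 to 1749 CPM in CD4 IEL. Of 6 markers of intraepithelial residence, 3 (Itgae, Gzma and Gzmb) were above every companion and 0 below. Xist stood at 373 to 645 CPM in 4 of the libraries labelled CD8αα (replicates 1 and 2 of the CD4 progeny, 1 and 3 of the CD8αβ progeny), where 4 Y-linked genes summed to at most 1.03 CPM. The Y-linked sum was 234 to 449 CPM in the remaining 2 of these libraries and in all 6 companions. The part of any of these in the results was not tested, other than by the fits without the libraries concerned that are given beside a call they end. In bulk RNA, fewer cells of a type and less RNA per cell cannot be told apart. A change to CD8αα, a rise or a fall below therefore means a difference between these libraries and their companions. Whether any cell changed its state was not tested.

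Among CD4-derived CD8αα, 2 of the 8 members were higher than in CD4 IEL (B2m and Tapbp) and 3 were lower (Tap1, Tap2 and Nlrc5). Of all genes tested in that comparison 28.5% were called, 15% higher and 13.5% lower. CD8αβ-derived CD8αα had 1 member higher than CD8αβ IEL (Tapbp) and 3 lower (Tap1, Tap2 and Nlrc5), where 31.2% of all genes were called, 16.1% higher and 15.1% lower. The members' median log2 fold change was -0.06 in CD4-derived CD8αα and -0.04 in CD8αβ-derived CD8αα, against 0.02 and 0.00 for all genes tested in the same comparisons. The libraries did not overlap between groups for 5 members in CD4 progeny and 6 in CD8αβ progeny, where 45.7% and 43.8% of all genes did not overlap. Any difference among the 4 groups was called for 7 members, all but H2-T3, and for 52.2% of all genes. No member's change was called different between the 2 progenies by edgeR's interaction test without a replicate block, in which 2.56% of all genes were called, 1.2% with a positive and 1.35% with a negative difference. At an unadjusted p under 0.05 that test had only B2m among the members, and DESeq2 called 1 member, also B2m. With a replicate block edgeR called B2m too.

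**Figure D2:**
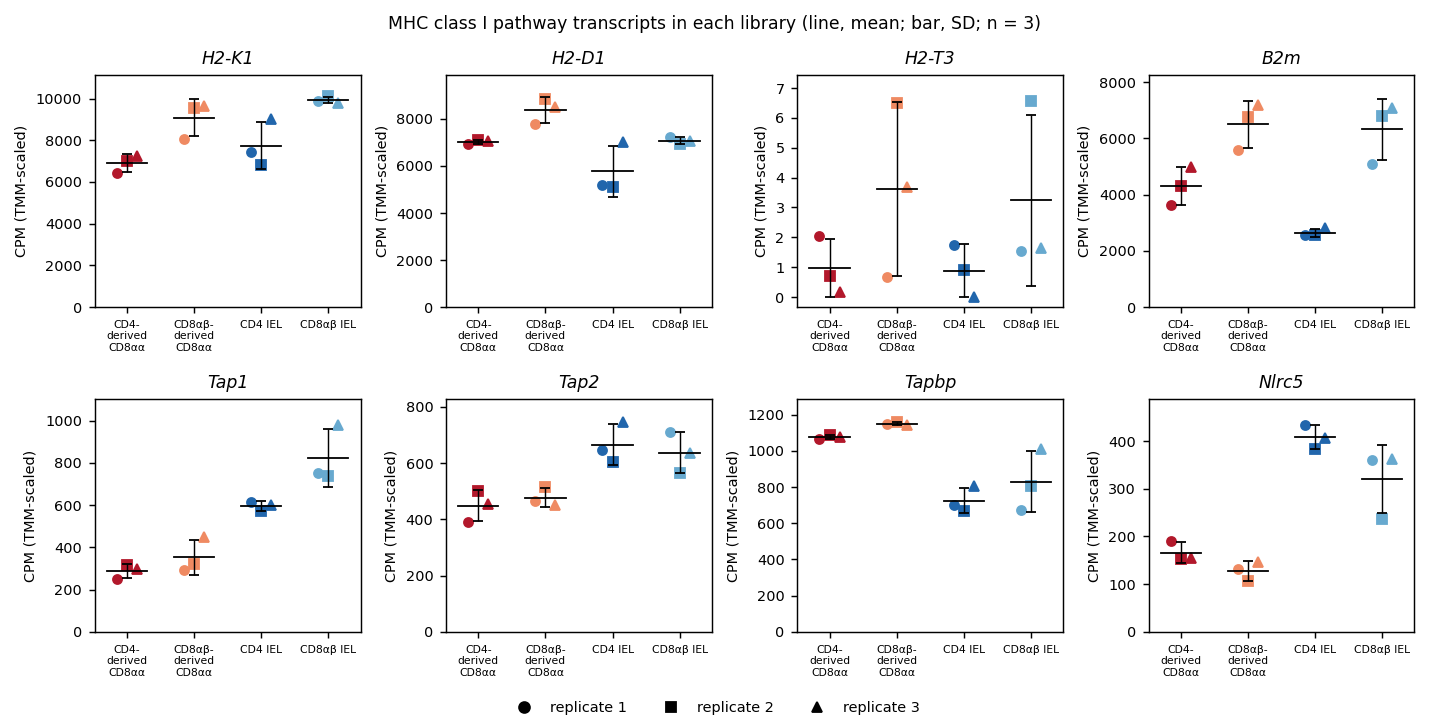
Level of each member in CPM (vertical axis, TMM-scaled) in the 3 libraries of each group, with symbols for replicates, a line at the mean and a bar of 1 SD. Tap1, Tap2 and Nlrc5 are lower in both groups labelled CD8αα than in their companions, Tapbp is higher, and H2-T3 stays at or below 6.55 CPM throughout.

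Neither classical heavy chain was called in a change to CD8αα. H2-K1 (ENSMUSG00000061232, chromosome 17 of mm10, 33996017 to 34000333, minus strand) encodes the K heavy chain that presents peptides to CD8 T cells. Its level was 6407, 7012 and 7244 CPM in the 3 libraries of CD4-derived CD8αα, against 7446, 6799 and 8996 CPM in CD4 IEL. It was 8068, 9526 and 9664 CPM in CD8αβ-derived CD8αα, against 9889.9, 10108 and 9800.2 CPM in CD8αβ IEL. The CD4 progeny groups overlapped, while all 3 CD8αβ-derived CD8αα libraries lay below every CD8αβ IEL library. The log2 fold change was -0.17 (SE 0.12, edgeR adjusted p = 0.319) in CD4 progeny and -0.13 (SE 0.12, edgeR adjusted p = 0.461) in CD8αβ progeny.

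H2-D1 (ENSMUSG00000073411, chromosome 17, 35262730 to 35267499, plus strand), the D heavy chain, had a level of 6913, 7083 and 7079 CPM in CD4-derived CD8αα, against 5182, 5096 and 7015 CPM in CD4 IEL. In CD8αβ-derived CD8αα it was 7761, 8836 and 8489 CPM, against 7218, 6929 and 7056 CPM in CD8αβ IEL. Replicate 3 of CD4 IEL reached the CD4-derived CD8αα range and the other 2 stood well below it, while in CD8αβ progeny every CD8αα library was above every companion. The log2 fold change was 0.29 (SE 0.12, edgeR adjusted p = 0.0984) in CD4 progeny and 0.24 (SE 0.12, edgeR adjusted p = 0.155) in CD8αβ progeny. Without replicate 3 of CD4 IEL, H2-D1 was called higher in CD4 progeny, at 0.45 (edgeR adjusted p = 0.00423). The same fit called it in CD8αβ progeny (edgeR adjusted p = 0.041), although that library is in neither group compared there. The estimate went from 0.243 to 0.245 and its SE from 0.122 to 0.083, in a fit where all groups share the estimate of spread. Of the 21 alternatives run in CD8αβ progeny, 20 left H2-D1 not called.

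Reads of these heavy chains are uncertain because the H2 family shares sequence. Of all 50-base windows along the transcripts, 9.63% of those of H2-K1 and 12.8% of those of H2-D1 occurred in another gene, mostly H2-Q members and each other. Over the 17 H2 class I genes of the table summed together, the level was 1.67 to 2.31% of a library's reads. That sum changed by -0.05 on the log2 scale in CD4 progeny (edgeR adjusted p = 0.79) and by -0.09 in CD8αβ progeny (edgeR adjusted p = 0.603), so neither change was called.

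H2-T3 (ENSMUSG00000054128, chromosome 17, 36185572 to 36190287, minus strand), the thymus leukaemia antigen, had a level near the limit of detection in most libraries. It was 2.05, 0.687 and 0.156 CPM in CD4-derived CD8αα (12, 6 and 1 reads), against 1.74, 0.913 and 0 CPM in CD4 IEL (16, 7 and 0 reads). It was 0.654, 6.48 and 3.68 CPM in CD8αβ-derived CD8αα (7, 61 and 32 reads), against 1.52, 6.55 and 1.65 CPM in CD8αβ IEL (11, 62 and 10 reads). Both replicate 2 libraries of the CD8αβ progeny stood apart with the highest values, and no pair of groups compared was separated. The log2 fold change was 0.06 (SE 1.19, edgeR adjusted p = 0.979) in CD4 progeny and 0.13 (SE 1.06, edgeR adjusted p = 0.943) in CD8αβ progeny, and its sign turned when single libraries were left out.

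Within CD8αβ progeny, markers of intestinal epithelium were highest in the same libraries as H2-T3. All 19 markers were in the table, none was at 0 in all libraries of a group, and their summed level was 839 to 1124 CPM in CD4-derived CD8αα and 784 to 1447 CPM in CD8αβ-derived CD8αα, against 137 to 302 CPM in CD4 IEL and 376 to 1129.6 CPM in CD8αβ IEL. The sum was highest in replicate 2 within each CD8αβ progeny group, at 1447 CPM in CD8αβ-derived CD8αα and 1129.6 CPM in CD8αβ IEL. In the CD4-derived CD8αα libraries, where H2-T3 was at 2.05 CPM or less, Cdh1, Cdh17 and Epcam made up most of the sum. Without these 3 genes, left out after their values were seen, the sum was 305 to 393 CPM in CD4-derived CD8αα. It was then 834 CPM in replicate 2 of CD8αβ-derived CD8αα and 989 CPM in replicate 2 of CD8αβ IEL, and 82.7 to 355 CPM in the other 7 libraries. The part of epithelial RNA in the H2-T3 values was not tested.

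**Figure D3:**
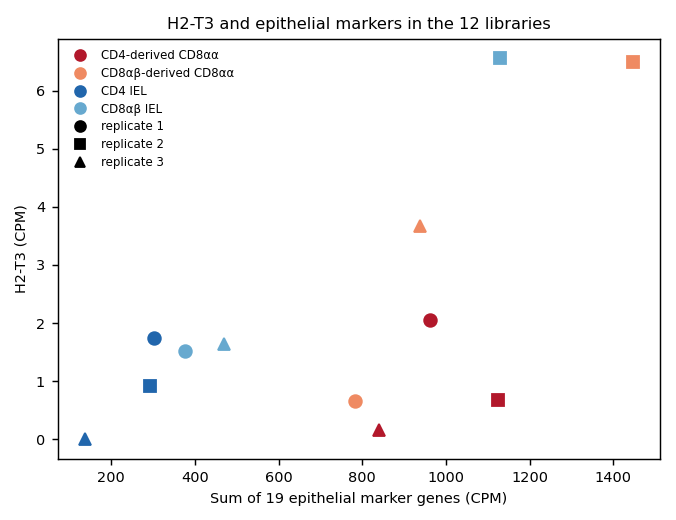
H2-T3 level in CPM (vertical axis) against the summed level of 19 epithelial marker genes in CPM (horizontal axis) in the 12 libraries, coloured by group with symbols for replicates. Both libraries above 6 CPM of H2-T3 are replicate 2 of the CD8αβ progeny, at sums of 1447 and 1129.6 CPM.

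B2m was called in 3 of the 4 comparisons. B2m (ENSMUSG00000060802, chromosome 2, 122147686 to 122153083, plus strand) had a level of 3644, 4293 and 4993 CPM in CD4-derived CD8αα, against 2562, 2554 and 2801 CPM in CD4 IEL. It was 5568, 6765 and 7179 CPM in CD8αβ-derived CD8αα, against 5090.4, 6776 and 7077 CPM in CD8αβ IEL. Every CD4-derived CD8αα library was above every CD4 IEL library, and the CD8αβ progeny groups overlapped. B2m rose 1.63-fold in CD4-derived CD8αα over CD4 IEL (log2 0.71, SE 0.15, edgeR adjusted p = 0.00313), higher in 3 of 3 libraries. In CD8αβ-derived CD8αα the log2 fold change against CD8αβ IEL was 0.04 (SE 0.15, edgeR adjusted p = 0.867). The difference between both changes was 0.67 on the log2 scale (SE 0.21, edgeR adjusted p = 0.123). With a replicate block it was called, at 0.65 (edgeR adjusted p = 0.0365), as it was without replicate 1 of CD8αβ IEL, at 0.80 (edgeR adjusted p = 0.0436). No 50-base window of B2m occurred in another gene.

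The TAP transporter genes were lower in both groups labelled CD8αα. Tap1 (ENSMUSG00000037321, chromosome 17, 34187553 to 34197225, plus strand) had a level of 250.2, 315 and 296 CPM in CD4-derived CD8αα, against 615, 573 and 599 CPM in CD4 IEL. In CD8αβ-derived CD8αα it was 293, 319 and 447 CPM, against 751, 738 and 979 CPM in CD8αβ IEL. All 6 libraries labelled CD8αα were below all 6 companions. Tap1 fell 2.07-fold in CD4-derived CD8αα (log2 -1.05, SE 0.17, edgeR adjusted p = 0.000372) and 2.33-fold in CD8αβ-derived CD8αα (log2 -1.22, SE 0.17, edgeR adjusted p = 9.35e-05). Both calls held under all 20 alternatives run in CD4 progeny and all 21 in CD8αβ progeny. The start of Tap1 overlaps Psmb9 on the other strand, and Psmb9 was at -0.07 on the log2 scale in CD4 progeny (edgeR adjusted p = 0.779) and fell by 0.96 in CD8αβ progeny (edgeR adjusted p = 0.000289). Reads of the overlap cannot be told apart without strand.

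Tap2 (ENSMUSG00000024339, chromosome 17, 34203527 to 34216321, plus strand), the partner half-transporter, had a level of 391, 500.0 and 455 CPM in CD4-derived CD8αα, against 646, 603 and 746 CPM in CD4 IEL. In CD8αβ-derived CD8αα it was 465, 516 and 451 CPM, against 711, 564 and 638 CPM in CD8αβ IEL. The groups did not overlap in either progeny. Tap2 fell 1.48-fold in CD4-derived CD8αα (log2 -0.57, SE 0.14, edgeR adjusted p = 0.00615) and 1.34-fold in CD8αβ-derived CD8αα (log2 -0.42, SE 0.14, edgeR adjusted p = 0.03). The second call was lost without replicate 1 or replicate 3 of CD8αβ-derived CD8αα or replicate 1 of CD8αβ IEL, at edgeR adjusted p = 0.0902, 0.107 and 0.109. With only the libraries labelled CD8αα that held Y-linked transcripts, 1 in each group, Tap2 was at -0.55 in CD4 progeny (edgeR adjusted p = 0.176) and -0.30 in CD8αβ progeny (edgeR adjusted p = 0.467). With only those that held Xist it was at -0.47 in CD8αβ progeny (edgeR adjusted p = 0.0578). Gm15821, annotated on the other strand within Tap2, had 0.206 to 0.231 of the reads of Tap2 in every library, and Gm20496, on the other strand over the start of Tap2, had 16211 reads over the 12 libraries, against 11678 for Gm15821. Gm20496 was at 0.06 on the log2 scale in CD4 progeny (edgeR adjusted p = 0.779) and fell by 0.61 in CD8αβ progeny (edgeR adjusted p = 0.00245). Reads of Tap2 and of either cannot be told apart without strand where they overlap.

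Tapasin was higher where the transporter was lower. Tapbp (ENSMUSG00000024308, chromosome 17, 33915899 to 33929288, plus strand) had a level of 1064, 1086 and 1076 CPM in CD4-derived CD8αα, against 702, 668 and 805 CPM in CD4 IEL. It was 1149, 1160.4 and 1140.4 CPM in CD8αβ-derived CD8αα, against 673, 805 and 1008 CPM in CD8αβ IEL. All 6 libraries labelled CD8αα lay above all 6 companions and varied little within a group, while the CD8αβ IEL libraries were spread. Zbtb22 overlaps Tapbp on the same strand, with 1309 reads over the 12 libraries, and Gm19412 on the other strand. Zbtb22 was at -0.335 on the log2 scale in CD4 progeny (edgeR adjusted p = 0.608) and -0.005 in CD8αβ progeny (edgeR adjusted p = 0.997). Of the 50-base windows of Tapbp, 2.87% occurred in another gene. Tapbp rose 1.48-fold in CD4-derived CD8αα (log2 0.57, SE 0.14, edgeR adjusted p = 0.00664) and 1.39-fold in CD8αβ-derived CD8αα (log2 0.47, SE 0.14, edgeR adjusted p = 0.0173). The second call was lost without replicate 1 of CD8αβ IEL (0.35, edgeR adjusted p = 0.0618), with only the 2 groups compared in the fit (0.46, edgeR adjusted p = 0.0623) and with only the libraries labelled CD8αα that held Xist (0.47, edgeR adjusted p = 0.063). With only those that held Y-linked transcripts it was 0.57 in CD4 progeny (edgeR adjusted p = 0.182) and 0.49 in CD8αβ progeny (edgeR adjusted p = 0.261).

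Nlrc5 had the largest absolute fold change of the 8 members in both comparisons of CD8αα libraries with their companions. Nlrc5 (ENSMUSG00000074151, chromosome 8, 94472763 to 94527272, plus strand) had a level of 191, 154 and 154 CPM in CD4-derived CD8αα, against 434, 384 and 407 CPM in CD4 IEL. It was 131, 106 and 146 CPM in CD8αβ-derived CD8αα, against 360.3, 237 and 362 CPM in CD8αβ IEL. All 6 libraries labelled CD8αα were below all 6 companions, and the 4 groups had no overlap between neighbours in their order of CD4 IEL, CD8αβ IEL, CD4-derived CD8αα and CD8αβ-derived CD8αα. Nlrc5 fell 2.46-fold in CD4-derived CD8αα (log2 -1.30, SE 0.18, edgeR adjusted p = 9.89e-05) and 2.50-fold in CD8αβ-derived CD8αα (log2 -1.33, SE 0.18, edgeR adjusted p = 6.95e-05). Both calls held under all 20 and all 21 alternatives run, including those with only the libraries labelled CD8αα that held Y-linked transcripts or only those that held Xist. Of the genes whose promoters were searched above, Tap1 fell and Tapbp rose in both progenies, and B2m rose in CD4 progeny. H2-K1, H2-D1 and H2-T3 were not called in either, although H2-D1 was called without replicate 3 of CD4 IEL. Whether Nlrc5 had a part in any of these was not tested.

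**Figure D4:**
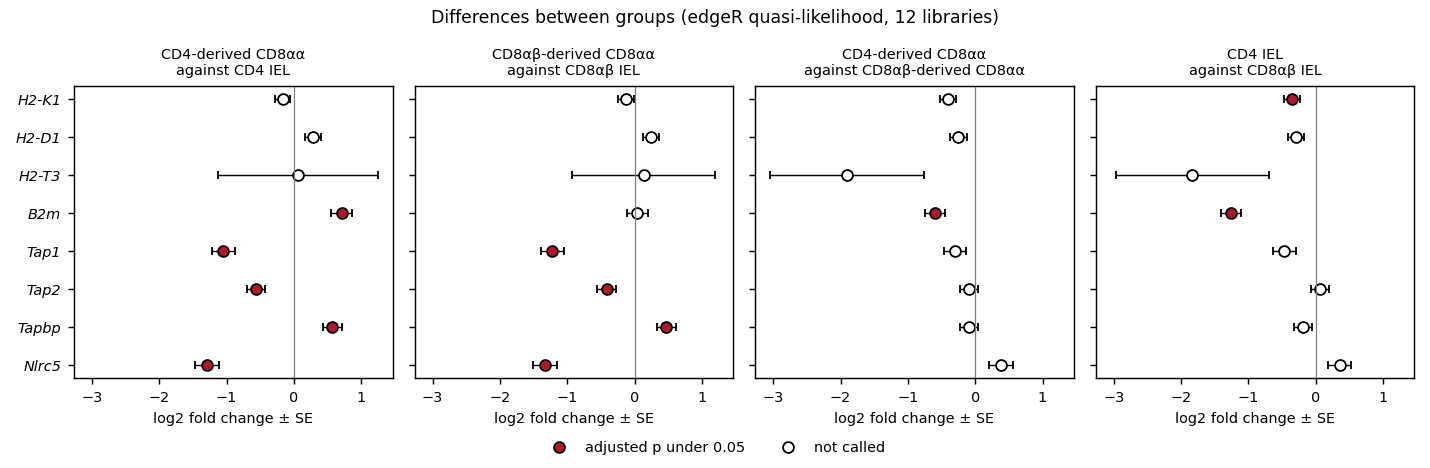
Log2 fold change of each member (horizontal axis, bars of 1 SE) in the 4 comparisons by edgeR's quasi-likelihood test, with filled symbols for adjusted p under 0.05. Tap1, Tap2 and Nlrc5 lie below 0 and Tapbp above 0 in both changes to CD8αα, and B2m is the member furthest below 0 with a call between CD4 IEL and CD8αβ IEL.

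Between the progenies, 1 member was lower in CD4-derived CD8αα than in CD8αβ-derived CD8αα and none was higher, where 4.33% of all genes were called, 1.87% higher and 2.46% lower. That member was B2m, 1.51-fold lower (log2 -0.59, SE 0.15, edgeR adjusted p = 0.0427), with all 3 CD4-derived CD8αα libraries below all 3 CD8αβ-derived CD8αα libraries. The call was lost without replicate 1 (edgeR adjusted p = 0.221) or 2 (0.129) of CD4-derived CD8αα, without replicate 2 (0.149) or 3 (0.164) of CD8αβ-derived CD8αα, without replicate 1 (0.0692) or 2 (0.0694) of CD4 IEL and without replicate 3 of CD8αβ IEL (0.0544). It was also lost with library totals alone (edgeR adjusted p = 0.0742), with only the Y-linked CD8αα libraries (0.826) and with only the Xist ones (0.115). H2-K1 was at -0.40 (SE 0.12, edgeR adjusted p = 0.0775) and was called with only these 2 groups in the fit (edgeR adjusted p = 0.034), without replicate 3 of CD4 IEL (edgeR adjusted p = 0.0396) and by DESeq2 (adjusted p = 0.0404). The libraries did not overlap for 5 members (H2-K1, H2-D1, B2m, Tapbp and Nlrc5), while 28.9% of all genes did not overlap.

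CD4 IEL had 2 members lower than CD8αβ IEL and none higher, where 29% of all genes were called, 12.9% higher and 16% lower, and the libraries of 41.5% did not overlap. B2m was 2.39-fold lower (log2 -1.26, SE 0.15, edgeR adjusted p = 0.000122), a call that held under all 20 alternatives. H2-K1 was 1.28-fold lower (log2 -0.36, SE 0.12, edgeR adjusted p = 0.0364), a call lost under 9 of 20 alternatives. These were the fits without replicate 1 or 2 of CD4 IEL (edgeR adjusted p = 0.0965 and 0.124), without replicate 1, 2 or 3 of CD8αβ IEL (0.0506, 0.0723 and 0.0559), with library totals alone (0.0927), with only the Y-linked or the Xist CD8αα libraries (0.0823 and 0.0556) and with only these 2 groups (0.0769). Tap1 was at -0.47 (SE 0.17, edgeR adjusted p = 0.0508), next to the threshold, and 9 of 20 alternatives called it lower, at adjusted p of 0.0258 to 0.0493. H2-D1 was at -0.29 (edgeR adjusted p = 0.0853) and without replicate 3 of CD4 IEL was called lower at -0.46 (edgeR adjusted p = 0.00543). The sum of the 17 H2 class I genes was lower by 0.40 on the log2 scale (edgeR adjusted p = 0.0159). With CD4 IEL and CD8αβ IEL scaled by library totals alone the median of all genes shifted by 0.117, the only shift above 0.1 among the scalings run. These 2 comparisons share their libraries with the changes to CD8αα.

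Per length of annotated exons, the members spanned a wide range of levels in every group. In CD4-derived CD8αα the level per kilobase was 5012 ± 784 CPM for B2m, 2724 ± 37.7 for H2-D1, 2344 ± 147 for H2-K1, 296 ± 3.10 for Tapbp, 119 ± 14.5 for Tap2, 52.5 ± 6.12 for Tap1, 19.6 ± 2.52 for Nlrc5 and 0.353 ± 0.358 for H2-T3 (SD, n = 3 each). In CD8αβ IEL it was 7342 ± 1245 CPM for B2m, 3381 ± 53.8 for H2-K1, 2740.5 ± 56.1 for H2-D1, 228 ± 46.5 for Tapbp, 169 ± 19.5 for Tap2, 150.3 ± 24.8 for Tap1, 37.6 ± 8.41 for Nlrc5 and 1.19 ± 1.05 for H2-T3 (SD, n = 3 each). The order differed only in that H2-D1 stood above H2-K1 in CD4-derived CD8αα and below it in CD8αβ IEL.

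Genes with the profile most like a member's were found as the smallest root mean square difference of centred log2 CPM over the 12 libraries, among 10886 genes. For Nlrc5 these were Map4k2 (0.17), Acsbg1 (0.17) and Notch1 (0.19), while the profile of Nlrc5 itself deviated by 0.70 from its mean. For Tap1 they were Mafk (0.14), Sp100 (0.17) and the class I heavy chain H2-Q7 (0.17), against 0.63 for Tap1 itself. For B2m they were Ndufs7 (0.11), Fis1 (0.11) and Pla2g16 (0.13), against 0.55 for B2m itself. For H2-T3 they were Tm6sf2 (0.32), Ptprf (0.36) and Osta (0.38), against 0.90 for H2-T3 itself. The nearest for the others were Cdc37 for H2-K1, Tmbim6 for H2-D1, Traf1 for Tap2 and Gsdmd for Tapbp. The likeness is a description over libraries that share their groups.

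Among 14 other class I and class I-like heavy chains tested, 2 rose and 3 fell in CD4-derived CD8αα, and 2 rose and 7 fell in CD8αβ-derived CD8αα. Of all genes tested, 15% were called higher and 13.5% lower in the first of these comparisons, and 16.1% higher and 15.1% lower in the second. The median log2 fold change of the 14 was -0.16 and -0.39 in these comparisons. Cd1d1, which presents lipids to NKT cells, rose in both progenies, with 102 ± 2.33 CPM in CD4-derived CD8αα against 34.5 ± 8.36 CPM in CD4 IEL (log2 1.56, edgeR adjusted p = 9.45e-05). Its level was 82.7 ± 12.8 CPM in CD8αβ-derived CD8αα against 37.0 ± 8.33 CPM in CD8αβ IEL (log2 1.16, edgeR adjusted p = 0.000808; SD, n = 3 each). Its close copy Cd1d2 had 49 reads in CD4-derived CD8αα against 3 in CD4 IEL, a ratio of 18.3 with a 95% exact counting interval of 5.90 to 91.8 (edgeR adjusted p = 0.0249). Any difference among the groups was not called for Cd1d2 (edgeR adjusted p = 0.059). Cd1d1 had 2142 reads in CD4-derived CD8αα and 825 in CD4 IEL, and sequence shared by the 2 copies was not searched. Mr1, which presents vitamin metabolites to MAIT cells, had 38.7 ± 4.19 CPM in CD8αβ-derived CD8αα against 10.08 ± 2.12 CPM in CD8αβ IEL (log2 1.95, edgeR adjusted p = 9.63e-05).

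Among the falls of these heavy chains was H2-Q10, a secreted form, with 7.47 ± 1.01 CPM in CD4-derived CD8αα against 50.04 ± 8.56 CPM in CD4 IEL (log2 -2.75, edgeR adjusted p = 7.1e-06). It had 10.2 ± 1.68 CPM in CD8αβ-derived CD8αα against 85.3 ± 31.9 CPM in CD8αβ IEL (log2 -3.06, edgeR adjusted p = 1.84e-06). H2-Q7, which encodes a Qa-2 chain, fell by 0.81 on the log2 scale in CD4-derived CD8αα (edgeR adjusted p = 0.00311) and by 1.04 in CD8αβ-derived CD8αα (edgeR adjusted p = 0.000416). Fcgrt, the neonatal Fc receptor heavy chain, had 0.0935 to 2.02 CPM in CD8αβ-derived CD8αα against 4.28 to 16.7 CPM in CD8αβ IEL (log2 -3.20, SE 0.88, edgeR adjusted p = 0.0127). H2-T23, the Qa-1 chain that NKG2A receptors bind, was lower in CD4-derived CD8αα than in CD8αβ-derived CD8αα (log2 -0.84, edgeR adjusted p = 0.0211) and lower in CD4 IEL than in CD8αβ IEL (log2 -0.97, edgeR adjusted p = 0.00183). H2-T22 was also lower in CD4-derived CD8αα than in CD8αβ-derived CD8αα (log2 -0.64, edgeR adjusted p = 0.049). In the comparison of CD4 IEL with CD8αβ IEL, 7 of the 14 were lower and 1 higher, among them H2-T24 lower (log2 -1.08, edgeR adjusted p = 0.029) and Mr1 higher (log2 1.07, edgeR adjusted p = 0.00992). Of all genes, 16% were lower and 12.9% higher there.

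Of 10 other genes of loading and trimming in the endoplasmic reticulum, 2 rose and 1 fell in CD4-derived CD8αα, and 1 rose and 3 fell in CD8αβ-derived CD8αα. All genes tested were called at 15% higher and 13.5% lower in CD4-derived CD8αα, and at 16.1% higher and 15.1% lower in CD8αβ-derived CD8αα. Canx, the chaperone calnexin, had 675 ± 26.3 CPM in CD4-derived CD8αα against 441 ± 36.4 CPM in CD4 IEL (log2 0.62, edgeR adjusted p = 0.00171). It had 516 ± 63.1 CPM in CD8αβ-derived CD8αα against 370.3 ± 26.3 CPM in CD8αβ IEL (log2 0.48, edgeR adjusted p = 0.00809). Pdia3, the thiol oxidoreductase ERp57 that partners tapasin, rose in CD4-derived CD8αα (log2 0.51, edgeR adjusted p = 0.0121). Sec61a1, the pore subunit of the Sec61 translocon, fell there (log2 -0.49, edgeR adjusted p = 0.0163). Tapbpl, the tapasin relative TAPBPR, had 173 ± 8.06 CPM in CD8αβ-derived CD8αα against 265 ± 34.4 CPM in CD8αβ IEL (log2 -0.62, edgeR adjusted p = 0.00356). Sec61g, a small translocon subunit, was at 2.43 to 5.63 CPM in CD8αβ-derived CD8αα against 1.98 to 30.1 CPM in CD8αβ IEL, groups that overlapped (log2 -1.94, edgeR adjusted p = 0.0466). CD4 IEL had 3 of the 10 lower than CD8αβ IEL and none higher, Sec61g (log2 -1.97, edgeR adjusted p = 0.047) and Sec61b (log2 -1.69, edgeR adjusted p = 0.00359) among them. Of all genes, 16% were lower and 12.9% higher in that comparison.

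The immunoproteasome and its activator shape the peptides that class I molecules receive. None of the 5 genes tested was called in CD4-derived CD8αα by edgeR, also none at an unadjusted p under 0.05, while 4 of 5 fell in CD8αβ-derived CD8αα. Of all genes, 28.5% were called in the first comparison, and 15.1% were called lower in the second. Psmb9, the LMP2 subunit, had 183 ± 30.1 CPM in CD4-derived CD8αα and 192 ± 21.1 CPM in CD4 IEL. It had 227 ± 24.4 CPM in CD8αβ-derived CD8αα against 442 ± 50.5 CPM in CD8αβ IEL (log2 -0.96, edgeR adjusted p = 0.000289). Psme2, an activator subunit, was at 165 ± 20.4 CPM in CD8αβ-derived CD8αα against 297 ± 50.6 CPM in CD8αβ IEL (log2 -0.84, edgeR adjusted p = 0.00232). All 5 were lower in CD4 IEL than in CD8αβ IEL, with Psme2 at -1.59 (edgeR adjusted p = 7.51e-05) and Psmb10, the MECL-1 subunit, at -1.24 on the log2 scale (edgeR adjusted p = 0.00025). There 16% of all genes were called lower. Psme1, the other activator subunit, was the 1 of 5 lower in CD4-derived CD8αα than in CD8αβ-derived CD8αα (log2 -0.57, edgeR adjusted p = 0.0427). In that comparison 2.46% of all genes were lower. The difference between both changes was called for Psmb9 and Psmb8, the LMP7 subunit (edgeR adjusted p = 0.0458 and 0.0291), and for 2.56% of all genes.

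Among 16 regulators of class I promoters, 1 rose and 2 fell in CD4-derived CD8αα, and 1 rose and 4 fell in CD8αβ-derived CD8αα. Of all genes tested, 15% were called higher and 13.5% lower in CD4-derived CD8αα. In CD8αβ-derived CD8αα 16.1% were called higher and 15.1% lower. Irf9, the DNA-binding subunit of an interferon-activated complex, had 89.5 ± 1.68 CPM in CD4-derived CD8αα against 186 ± 6.35 CPM in CD4 IEL (log2 -1.05, edgeR adjusted p = 0.00513). It had 179 ± 73.2 CPM in CD8αβ-derived CD8αα against 291 ± 51.8 CPM in CD8αβ IEL, with libraries that overlapped (log2 -0.71, edgeR adjusted p = 0.0377). Nfkb1, which encodes an NF-kappa B subunit, fell by 1.31 on the log2 scale in CD4-derived CD8αα (edgeR adjusted p = 0.000556) and by 1.20 in CD8αβ-derived CD8αα (edgeR adjusted p = 0.00086). Irf8, an interferon regulatory factor of myeloid cells and some lymphocytes, had 320.1 ± 8.44 CPM in CD4-derived CD8αα against 56.5 ± 16.4 CPM in CD4 IEL (log2 2.50, edgeR adjusted p = 0.000512). A list of myeloid markers was also higher there, at a summed 993 to 1205 CPM in CD4-derived CD8αα against 82.8 to 182 CPM in CD4 IEL, and its part in the Irf8 value was not tested. Itgax at 707 to 939 CPM and Itgam at 225 to 256 CPM made up most of that sum in CD4-derived CD8αα, against 49.6 to 89.0 and 4.04 to 16.6 CPM in CD4 IEL. Among the others, Cd68 was at 4.61 to 13.1 CPM in CD4-derived CD8αα against 14.8 to 22.1 CPM in CD4 IEL, Csf1r and Lyz2 overlapped between the groups, and Fcgr1 was at 0 in all 3 CD4-derived CD8αα libraries. Ciita, the class II relative of Nlrc5, rose in CD8αβ-derived CD8αα (log2 1.31, edgeR adjusted p = 0.0359).

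The regulators were also compared between the progenies. Irf9 was the 1 of 16 called lower in CD4-derived CD8αα than in CD8αβ-derived CD8αα (log2 -0.995, edgeR adjusted p = 0.0357). In that comparison 4.33% of all genes were called, 2.46% of them lower in CD4-derived CD8αα as a share of all genes. In CD4 IEL, 3 of 16 were higher than in CD8αβ IEL and 1 was lower, where 12.9% of all genes were higher and 16% lower. Rfx5, a subunit of the RFX complex, was higher (72.4 ± 14.8 CPM in CD4 IEL against 29.7 ± 10.04 CPM in CD8αβ IEL, log2 1.29, edgeR adjusted p = 0.00361), as was Irf2 (log2 0.82, edgeR adjusted p = 0.00844). Irf8 was lower in CD4 IEL (log2 -2.40, edgeR adjusted p = 0.00111), but its CD8αβ IEL libraries ran from 129 to 569.6 CPM.

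**Figure D5:**
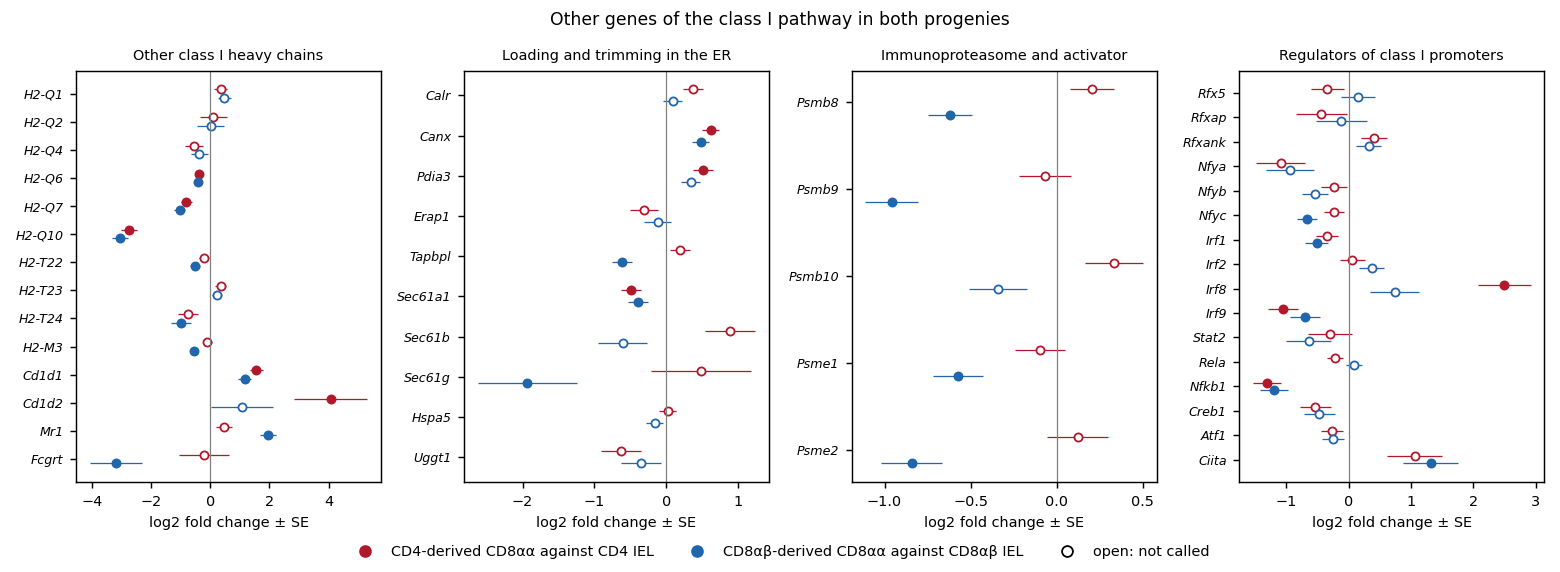
Log2 fold change (horizontal axis, bars of 1 SE) of the tested genes of 4 wider lists in CD4-derived CD8αα against CD4 IEL (red) and CD8αβ-derived CD8αα against CD8αβ IEL (blue), by edgeR, with open symbols for genes not called. The immunoproteasome panel shows 4 of 5 genes called lower in blue and none called in red.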

How the data were processed

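RNA of 12 sorted IEL libraries was examined. The authors deposited raw counts of reads for each gene as whole numbers, without normalisation. HISAT2 2.1.0 was the aligner and mm10 the mouse genome build, per the submitters' processing notes. How reads were counted (program, annotation release, strand, multiple matches) is not given in the sources used here, so reads of near-identical H2 genes and of overlapping or antisense genes are uncertain. Of rows with the same symbol only the one with most reads was used, which left out 66 of 25965 rows and 0.0202% of reads. Coordinates and exon lengths come from the GENCODE M21 annotation of mm10, matched by identifier for 24986 genes.

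Genes were filtered with filterByExpr (minimum count 10, minimum total 15), scaled by TMM and fitted in edgeR 4.0.16 (R 4.3.3) with 1 mean per group over all 12 libraries, without a replicate block. Tests were two-sided and called at adjusted p under 0.05, with values adjusted across the whole table. The interaction is the change in CD4 progeny minus that in CD8αβ progeny. The test was checked on simulated counts. Fold changes of genes with 1 to 3 reads in a group are given as ratios of reads with an exact 95% interval. Intervals and limits of a count of 0 cover counting error only.

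The members, lists and tests were chosen with earlier results of these data known. Genes of the wider lists are named by rule, as up to 2 called genes per list, direction and comparison with the largest absolute log2 fold change, and genes of like profile as the 3 nearest to each member. A gene of the regulator list is not reported here and is left out of its counts. Chi-square per gene between replicates, at a minimum of 20 reads for a gene in both libraries together, was 11.4 to 60.2, so no pair of libraries agreed within sampling noise. Same-numbered libraries of CD8αβ-derived CD8αα and CD8αβ IEL deviated together from their group means (r of 0.231, 0.376 and 0.13 across genes), which by a limit of 0.1 set for every pair counts as pairing. The other comparisons had pairs below that limit. Alternatives were library totals alone, RLE size factors, no filter on low counts, a replicate block, DESeq2 1.42.0, only the groups compared, leaving out each library, and only the libraries labelled CD8αα with Y-linked transcripts. A fit with only those that held Xist, and a replicate block within the CD8αβ progeny alone, were added after the data were seen. No alternative was examined for single genes of the wider lists.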

Additional observations from a re-analysis of the deposited data

Results flagged for a closer look

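In 3 genes of the wider lists the change to CD8αα differed between the progenies by the interaction test itself. That test called 2.56% of all genes. Tapbpl, the tapasin relative, differed by 0.80 on the log2 scale (edgeR quasi-likelihood test, Benjamini-Hochberg adjusted p = 0.0458), with a change of 0.19 in CD4-derived CD8αα and of -0.62 in CD8αβ-derived CD8αα. Psmb9 differed by 0.89 (edgeR adjusted p = 0.0458), with changes of -0.07 and -0.96 in the same order. Psmb8 differed by 0.82 (edgeR adjusted p = 0.0291), with changes of 0.20 and -0.62. In all 3 the companions were also apart, with CD4 IEL against CD8αβ IEL at -0.92 for Tapbpl, -1.20 for Psmb9 and -1.18 for Psmb8 on the log2 scale (edgeR adjusted p = 0.000432, 0.000166 and 6.14e-05). What sets these differences was not tested. No alternative fit was examined for these 3 genes. Over all genes the test called 147 to 368 without 1 library, against 323 with all libraries.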

How the results depend on the processing

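Of 799 alternative values of the members' 40 fold changes, 713 kept their direction and their side of the threshold, 30 lost a call, 18 gained one and 38 turned sign. With only the libraries labelled CD8αα that held Y-linked transcripts, 1 in each CD8αα group and assumed to vary like the other libraries, 1280 genes and 3 members were called in CD4 progeny, 1421 and 2 in CD8αβ progeny, 1 and 0 between both CD8αα groups, 1 member between CD4 IEL and CD8αβ IEL, and 13 genes for the interaction. With only those that held Xist these were 2 members in CD8αβ progeny, 141 genes and 0 members between the CD8αα groups, 1 member between the companions and 109 genes for the interaction. Library totals alone left 0 members between the CD8αα groups and 1 between the companions. Between the CD8αα groups, the fit of these groups alone called 959 genes and 2 members, and DESeq2 called 1036 and 2, against 547 and 1. For the interaction DESeq2 called 817 genes and 1 member, against 323 and 0. A replicate block added 1 member to the interaction (B2m), and called Tap1 between the companions (-0.45, edgeR adjusted p = 0.032). It changed no other call of a member, pairing or not. Leaving out 1 library gave 2 to 5 members in CD8αβ progeny, 166 to 714 genes and 0 to 2 members between the CD8αα groups, 1 to 3 members between the companions, and 147 to 368 genes and 0 to 1 members for the interaction. Signs turned only for values not called. In CD4 progeny H2-T3 was -0.011 with library totals, -2.42 with the Y-linked libraries and -1.05 to 0.98 without 1 library. In CD8αβ progeny B2m was -0.017 with library totals and -0.089 to 0.14 without 1 library, and H2-T3 -0.60 with the Xist libraries and -0.60 to 1.17 without 1 library. Tap2 without 1 library was -0.175 to 0.026 between the CD8αα groups and -0.026 to 0.15 between the companions. Interaction values were 0.00 (Nlrc5, library totals), -0.04 (Nlrc5, Xist), -0.028 (H2-D1, Y-linked) and 1.16 (H2-T3, Xist), and without 1 library -0.09 to 0.20 for Nlrc5, -0.01 to 0.20 for H2-D1, -1.14 to 0.89 for H2-T3, -0.12 to 0.076 for H2-K1 and -0.033 to 0.22 for Tapbp. The cause was not tested. Depth limits H2-T3 alone among the members.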

Other observations

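The ratios of paired members within a library, chosen after their values were seen and given without a test, do not depend on the scaling of libraries. H2-D1 over H2-K1 reads was 1.08, 1.01 and 0.977 in CD4-derived CD8αα and 0.962, 0.928 and 0.878 in CD8αβ-derived CD8αα, against 0.696, 0.750 and 0.780 in CD4 IEL and 0.730, 0.686 and 0.720 in CD8αβ IEL. All 6 libraries labelled CD8αα were above all 6 companions, and CD4-derived CD8αα lay above CD8αβ-derived CD8αα without overlap. Since the H2 genes share sequence, these are ratios of reads assigned and not of transcripts.

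Tapbp over Tap1 reads, the tapasin to transporter ratio, was 3.44 to 4.25 in CD4-derived CD8αα and 2.55 to 3.93 in CD8αβ-derived CD8αα, against 1.14 to 1.34 in CD4 IEL and, in CD8αβ IEL, 0.896 to 1.09. The groups labelled CD8αα did not overlap their companions. Tap1 over Tap2 reads was 0.631 to 0.651 in CD4-derived CD8αα and 0.620 to 0.992 in CD8αβ-derived CD8αα, against 0.803 to 0.952 in CD4 IEL and, in CD8αβ IEL, 1.06 to 1.54. Replicate 3 of CD8αβ-derived CD8αα, at 0.992, was the library that reached above the CD4 IEL range.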
